A study of Mus musculus with 4 samples.

Results

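The Hox cluster genes were examined in mouse liver for accessible chromatin, measured by ATACseq, and for the histone variant H2A.Z, measured by ChIPseq. The members were the protein-coding genes of GENCODE vM21 named Hoxa, Hoxb, Hoxc or Hoxd followed by a number, and 39 of 21938 protein-coding genes met this rule. The WT liver was Uhrf1-fl/fl, and the Uhrf1hepKO liver was Uhrf1-fl/fl;Alb:Cre, so that both carried the floxed alleles. The Cre of the Uhrf1hepKO liver was under the albumin promoter, which is active in the hepatocyte lineage. Both mice were male, C57Bl/6, 8 to 12 weeks old and on a normal diet. The same liver of each genotype gave both assays, so there were 4 libraries, 1 per group. The spread between mice is unknown, and no difference between genotypes was tested. The chromatin was that of a whole liver, where a site open in few cells and a site weakly open in many cannot be told apart.

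Hox genes encode homeodomain transcription factors that set the identity of segments along the axis of the embryo. They lie in 4 clusters that arose by duplication, so that genes of the same number in different clusters are paralogues. Genes of low number are used early and toward the head, and genes of high number late and toward the tail. In cells that do not use them the clusters are a classic target of Polycomb repression. H2A.Z is found at the starts of active genes and at Polycomb-repressed ones, and Tn5 transposase, the enzyme of ATACseq, cuts DNA that is not wrapped in nucleosomes. UHRF1 keeps CpG methylation through DNA replication.

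Neither ATACseq list held a peak in the clusters, so the sequences shown are those of the H2A.Z peaks, outside annotated exons, and of 3 promoters without a peak in any library. All are from GRCm38, read 5′ to 3′, with CpGs in capitals. The first is the WT H2A.Z peak of the Hoxb cluster, on the plus strand at chr11:96311820-96311920. The second is the intronic end of the Uhrf1hepKO H2A.Z peak near the 5′ end of the Hoxa7 gene model, on the plus strand at chr6:52221475-52221546.
Hoxb WT H2A.Z: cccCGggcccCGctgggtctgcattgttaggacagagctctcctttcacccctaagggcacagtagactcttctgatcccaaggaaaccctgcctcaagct
Hoxa Uhrf1hepKO H2A.Z: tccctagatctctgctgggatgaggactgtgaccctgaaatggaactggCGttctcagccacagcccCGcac

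Hoxa13 and Hoxd13 are shown because their windows of 500 bp around the TSS are among the 3 with the most CpGs of all members, and Hoxb4 because its TSS was the Hox TSS nearest to the Hoxb peak. Each sequence is the 250 bases before the RefSeq TSS, on the strand of the gene. They lie at chr6:52260881-52261130 (minus strand), chr2:74667975-74668224 (plus strand) and chr11:96318017-96318266 (plus strand).
Hoxa13: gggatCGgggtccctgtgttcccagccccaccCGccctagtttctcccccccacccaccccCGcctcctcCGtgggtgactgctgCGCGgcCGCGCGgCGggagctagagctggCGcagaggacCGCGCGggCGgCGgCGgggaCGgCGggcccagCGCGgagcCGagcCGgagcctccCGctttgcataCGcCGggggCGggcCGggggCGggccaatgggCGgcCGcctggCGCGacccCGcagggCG
Hoxd13: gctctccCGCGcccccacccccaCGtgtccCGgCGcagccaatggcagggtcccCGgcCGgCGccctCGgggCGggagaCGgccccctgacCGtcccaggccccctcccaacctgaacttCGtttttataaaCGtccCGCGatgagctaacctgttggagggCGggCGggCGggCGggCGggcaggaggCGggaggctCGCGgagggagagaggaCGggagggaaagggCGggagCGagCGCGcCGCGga
Hoxb4: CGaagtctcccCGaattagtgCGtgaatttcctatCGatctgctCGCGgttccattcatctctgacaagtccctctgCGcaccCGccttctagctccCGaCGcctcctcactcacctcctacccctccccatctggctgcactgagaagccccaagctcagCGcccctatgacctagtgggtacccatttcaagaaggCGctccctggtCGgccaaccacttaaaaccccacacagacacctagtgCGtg
These 3 stretches held 35, 31 and 14 CpGs, while the Hoxb peak held 2 in its 101 bp.

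No Hox gene had an ATACseq peak within 5 kb of its TSS, and 1 had an H2A.Z peak. The count was 0 of 39 in the WT ATACseq library (Wilson 95% interval 0 to 8.97%), where 30.2% of all protein-coding genes had a peak. It was 0 of 39 in Uhrf1hepKO ATACseq (0 to 8.97%), against 27.9% of all. In WT H2A.Z, 1 of 39 had a peak (2.56%, 0.454 to 13.2%), against 52.8%, and in Uhrf1hepKO H2A.Z 1 of 39 (2.56%, 0.454 to 13.2%), against 51.0%. The gene was Hoxa7 in both H2A.Z libraries. The intervals cover counting error only and take the genes as separate, although the windows of 27 members overlapped that of another member and the 39 windows merged into 20 stretches of 311932 bp in all.

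The Hox promoters were not poor in CpGs. They held a median of 52.0 CpGs within 500 bp of the TSS (10 to 126), against 41.0 over all protein-coding genes, and 29 of 39 reached that median. The 9032 protein-coding genes with at least 52 CpGs had a higher median, 75.0. Of them, 50% had a WT ATACseq peak near the TSS, 45.8% a Uhrf1hepKO ATACseq peak, 77.0% a WT H2A.Z peak and 75.0% a Uhrf1hepKO H2A.Z peak. In the class of 40 to 59 CpGs, which held 13 Hox genes, the shares over all genes were 44.0%, 40.5%, 73.7% and 71.3%. Hoxa7 alone of these 13 had a peak, in H2A.Z only. In the class of 60 to 79 CpGs, which held 11 Hox genes, the shares over all genes were 52.0%, 48.0%, 78.2% and 76.9%, and none of the 11 had a peak in any library. The 3 members with 100 or more CpGs, Hoxa13 (126), Hoxa4 (125) and Hoxd13 (118), also had none, where 44.3% of such genes had a WT ATACseq peak and 72.4% a WT H2A.Z peak. At the other end, Hoxb2 (10), Hoxb3 (15), Hoxc4 (17) and Hoxb6 (19) formed the class of 10 to 19 CpGs, in which 10.1% of all genes had a WT ATACseq peak and 29.7% a WT H2A.Z peak.

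**Figure D1:**
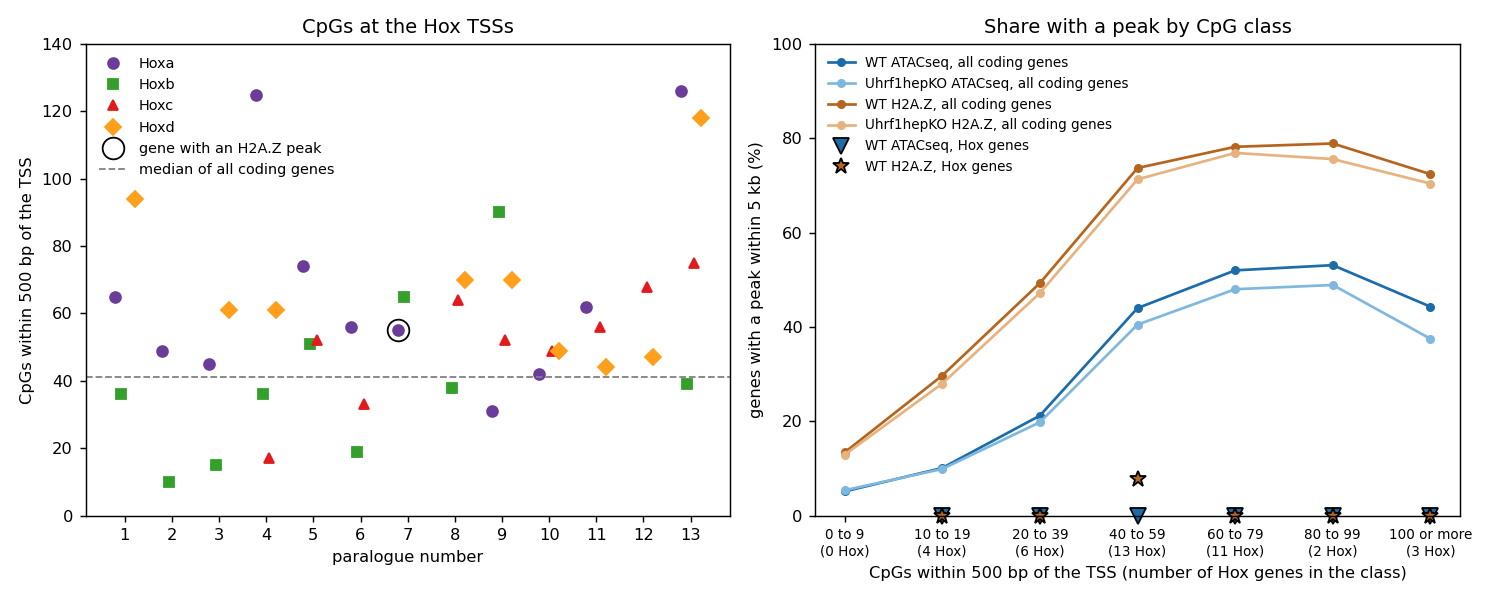
CpGs within 500 bp of the TSS of each Hox gene by paralogue number (left) and the percentage of genes whose TSS had a peak within 5 kb by CpG class (right), where lines are all protein-coding genes and symbols the Hox genes. All 29 Hox genes with 41 CpGs or more lacked ATACseq peaks, and Hoxa7, with 55 CpGs, was the gene with an H2A.Z peak.

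RefSeq gave 24 promoters for 22 of the members, each of 300 bp. None of the 24 overlapped a peak of any library, where 17.3% of all promoters of that table did in WT ATACseq, 15.9% in Uhrf1hepKO ATACseq, 23.3% in WT H2A.Z and 22.0% in Uhrf1hepKO H2A.Z. The Hox promoters held a median of 14.5 CpGs in the 300 bp (4 to 45) and all promoters a median of 7.

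The H2A.Z peak at Hoxa7, a gene of the middle of the cluster, was found in both livers. In WT it spanned 165 bp at chr6:52221575-52221739, with a fold of 7.80 over background at its summit and a −log10 q-value of 16.9. In Uhrf1hepKO it spanned 226 bp at chr6:52221475-52221700, with a fold of 6.27 and a −log10 q-value of 11.8. Each fold is read within its own list, where it stood at percentile 84.9 in WT and 65.1 in Uhrf1hepKO. The WT fold corresponded to 31 reads over 3.10, the common background of its list (exact Poisson 95% interval 21.1 to 44.0). The Uhrf1hepKO fold corresponded to 26 reads over 3.30, the common background of that list (17.0 to 38.1). These intervals cover counting error only. The reads are not scaled between libraries, and a difference between the livers was not tested. The 2 peaks shared 126 bp, which is 76.4% of the WT peak and 55.8% of the Uhrf1hepKO peak, and their summits lay 20 bp apart.

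The position of this peak depends on which start of Hoxa7 is taken. The WT peak lay wholly in exon 1 of transcript Hoxa7-204, a UTR exon, and 154 bp of the Uhrf1hepKO peak did. Its summits were 205 bp (WT) and 225 bp (Uhrf1hepKO) downstream of that transcript's start, which is the 5′ end of the gene model. They were 4144 and 4124 bp upstream of the start of Hoxa7-201, which is the principal transcript in GENCODE, and 1256 and 1236 bp upstream of that of Hoxa7-205. On the far side, the nearest start of Hoxa9, that of Hoxa9-202, was 4450 bp from the edge of the WT peak, and the 5′ end of the Hoxa9 gene was 9350 bp from it. With 1 kb windows around the lowest-numbered transcript of each gene, no Hox gene had a peak in either H2A.Z list.

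**Figure D2:**
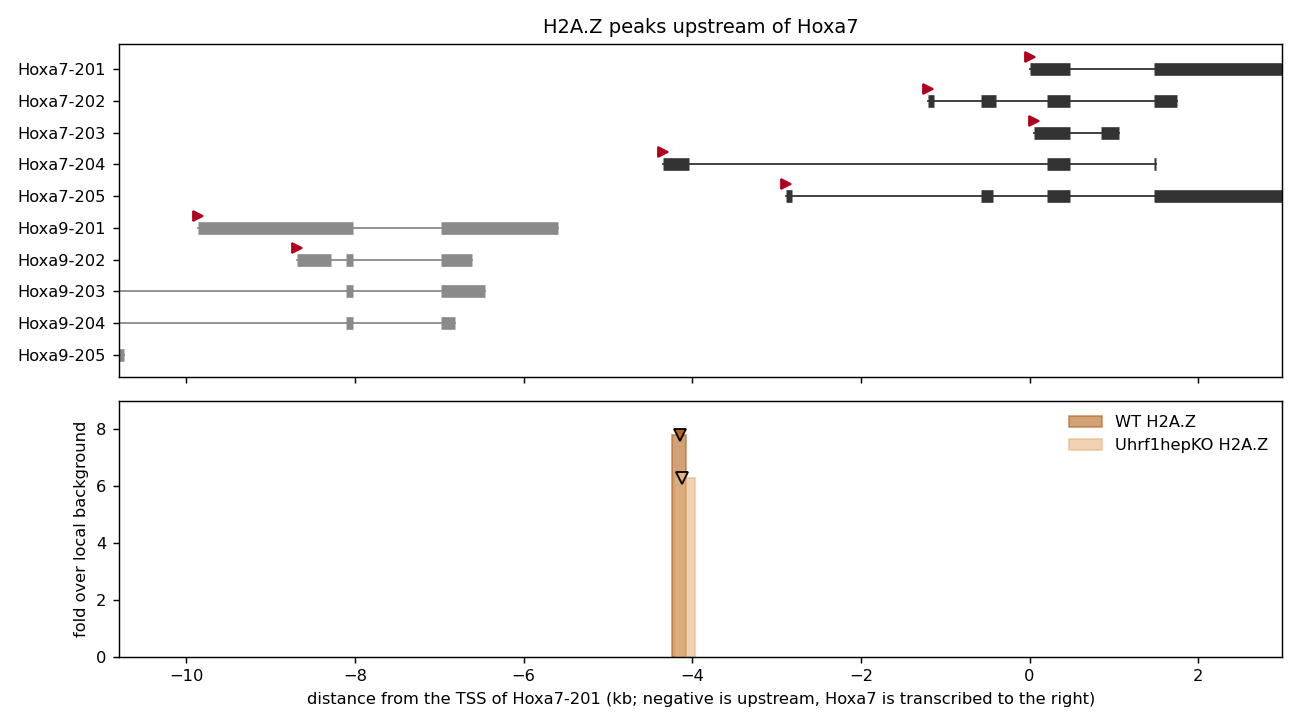
Transcripts of Hoxa7 and Hoxa9 (top; boxes are exons, red arrowheads starts) and the H2A.Z peaks of both livers (bottom; bar width is the peak, height its fold, triangle its summit) against distance in kb from the start of Hoxa7-201. The WT peak (fold 7.80) and the Uhrf1hepKO peak (6.27) overlap in the first exon of Hoxa7-204, and no peak lies at the start of Hoxa7-201.

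The WT peak held 11 CpGs (6.67 per 100 bp) and 60% G and C, and the Uhrf1hepKO peak 15 CpGs (6.64 per 100 bp) and 62.4%. The shared 126 bp held 9 of them. This is denser than the Hoxa cluster as a whole, which had 2.99 CpGs per 100 bp. Neither strand of either peak held the CTCF core AGGNGGC, the GC box GGGCGG, the Pbx-Hox motif TGATTNAT or the homeodomain motif TAATTA. Of all WT H2A.Z peaks, 13.2%, 8.22%, 2.75% and 4.95% held these letters, and of all Uhrf1hepKO H2A.Z peaks 13.4%, 8.22%, 2.90% and 5.16%. These peaks differ in width, and an absent match says only that the letters are not in this window.

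The other peak in a cluster was an H2A.Z peak of the WT liver in the Hoxb cluster, between Hoxb5 and Hoxb4, whose sequence is given above. It spanned 101 bp, with a fold of 4.39 (23.9th percentile of its list) and a −log10 q-value of 5.15. It overlapped no annotated transcript and held 2 CpGs (1.98 per 100 bp), 58.4% G and C, and none of the 4 motifs. Its edge was 6347 bp from the TSS of Hoxb4 and 8484 bp from that of Hoxb5, which kept both outside the 5 kb window, and 5245 bp from Mir10a, a microRNA gene of the cluster. No Uhrf1hepKO H2A.Z peak overlapped it or lay within 500 bp of it. Its 17 reads over 3.10 had an interval of 9.90 to 27.2, and the lowest pileup at the common background was 11 reads in the WT list and 12 in the Uhrf1hepKO list. The Uhrf1hepKO reads at this site are not in the list, and the difference between the livers was not tested.

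By cluster, the nearest peak to each TSS was far away except for H2A.Z in Hoxa and, in WT, in Hoxb. In the Hoxa cluster (11 genes) the median distance from the TSS to a peak was 148832 bp in WT ATACseq, 200267 bp in Uhrf1hepKO ATACseq, 19115 bp in WT H2A.Z and 19154 bp in Uhrf1hepKO H2A.Z. After Hoxa7, whose 5′ end was 115 bp (WT) and 154 bp (Uhrf1hepKO) from the H2A.Z peak, the next Hoxa gene was Hoxa3 at 8239 and 8139 bp. In the Hoxb cluster (10 genes) the medians were 221760, 221755, 27556 and 156841 bp, and the shorter WT H2A.Z distances rest on the single peak between Hoxb5 and Hoxb4. In the Hoxc cluster (9 genes) they were 122998, 193873, 122802 and 122797 bp, and in the Hoxd cluster (9 genes) 112872, 118644, 111166 and 110677 bp, with no peak closer than 62396 bp to a Hoxd TSS in any library. Over all 39 members the medians were 136014, 195306, 56744 and 110677 bp, and 22.4%, 17.9%, 20.3% and 13.0% of all protein-coding genes lay farther from a peak than these.

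By paralogue number, group 7 (Hoxa7 and Hoxb7) was the group with a peak, at Hoxa7 and not at Hoxb7, which lay 25197 bp from an H2A.Z peak in WT and 145558 bp in Uhrf1hepKO. The anterior groups 1 to 3 (8 genes), which include the hindbrain genes Hoxa2 and Hoxb1, had no peak in any library, nor had the posterior groups 9 to 13 (16 genes). Of the 15 genes of groups 4 to 8 in between, Hoxa7 alone had a peak, and in H2A.Z only. These counts take the 5′ end of each gene. With the starts of every transcript, Hoxa9 of group 9 was also counted in both H2A.Z lists. It was reached by the same peak, whose edge was 4450 bp (WT) and 4489 bp (Uhrf1hepKO) from the start of Hoxa9-202. Hoxa13 and Hoxd13, of group 13, pattern the ends of the limbs and the genital tubercle. Group 13 had the most CpGs, with a median of 96.5 (39 to 126). Group 2 had the fewest, with 49 at Hoxa2 and 10 at Hoxb2. Hoxb13, which stands apart from the other Hoxb genes, was 118170 bp (WT) and 118165 bp (Uhrf1hepKO) from an ATACseq peak and 53259 and 53251 bp from an H2A.Z peak. Gene models overlap in several places (Hoxa3, Hoxc5, Hoxc10, Hoxd3 and Hoxd4), so a window can be shared by neighbours and a 5′ end can be that of a long transcript.

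Across the clusters, from the first to the last Hox gene, the lists were close to empty. The spans were chr6:52155590-52260880 for Hoxa (105291 bp, genes on the minus strand), chr11:96194316-96368256 for Hoxb (173941 bp), chr15:102921103-103036852 for Hoxc (115750 bp) and chr2:74668310-74765142 for Hoxd (96833 bp), the last 3 with genes on the plus strand. In these 491815 bp the ATACseq lists had 0 peaks, where the genome had 3.88 per Mb in WT and 3.95 in Uhrf1hepKO. At such rates few peaks would fall in spans this short, and 73.8% of 100 kb windows outside the clusters had none in each ATACseq list. The WT H2A.Z list had 2 peaks in the spans (4.07 per Mb against 18.9 in the genome), and the Uhrf1hepKO H2A.Z list 1 (2.03 against 17.3). H2A.Z peaks covered 0.0541% of the clusters in WT and 0.0460% in Uhrf1hepKO, against 0.430% and 0.413% of the genome. Because no ATACseq peak was there, no site had both. The clusters had 2.99 (Hoxa), 2.09 (Hoxb), 2.15 (Hoxc) and 2.80 (Hoxd) CpGs per 100 bp, against 0.802 in the genome.

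**Figure D3:**
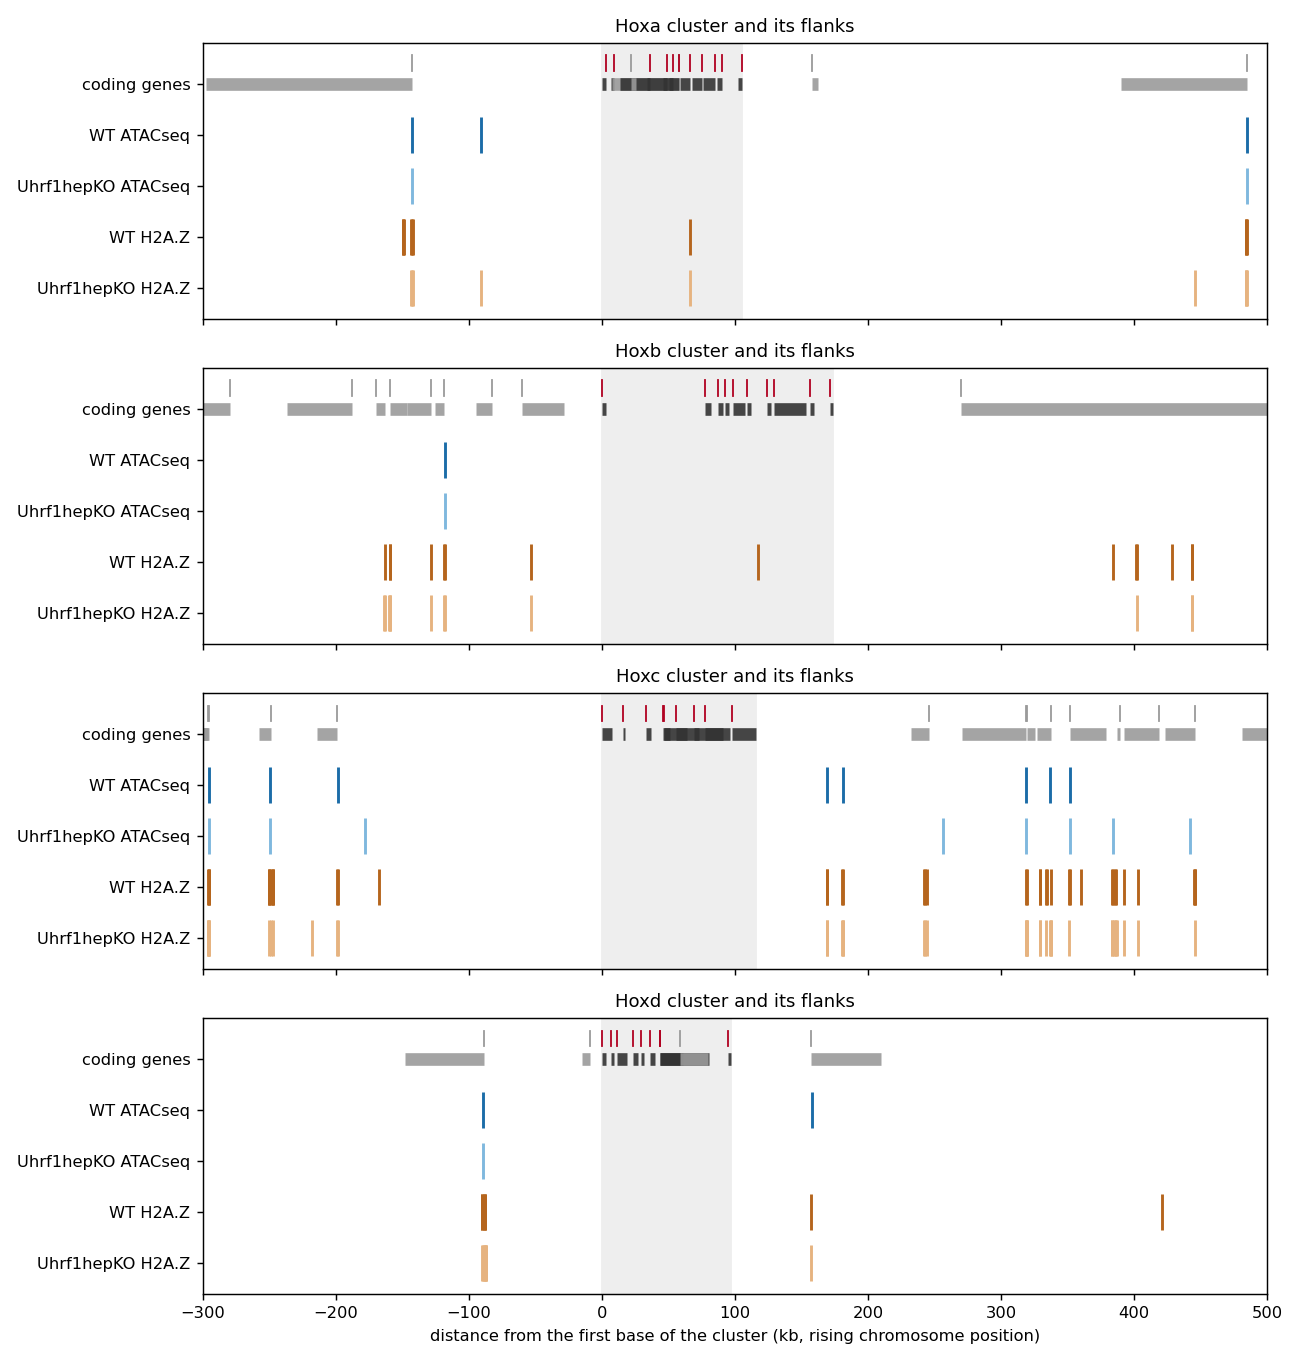
The 4 Hox clusters (grey) with 300 kb before and up to 500 kb after their first base: protein-coding genes (dark, Hox; light, others; ticks above, TSSs) and the peaks of the 4 libraries, against distance in kb. The clusters hold 0 ATACseq peaks, 2 WT and 1 Uhrf1hepKO H2A.Z peaks. Past Hoxb, no ATACseq peak of either library lies in the frame.

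The longest stretch without a peak that reached into a cluster was 701439 bp at Hoxb in WT ATACseq and 701429 bp in Uhrf1hepKO ATACseq. At Hoxa it was 575735 and 627217 bp, at Hoxc 368106 and 434233 bp, and at Hoxd 246782 and 635647 bp. The median gap between peaks was 85591 bp in the WT and 85276 bp in the Uhrf1hepKO ATACseq list, and the stretches at the clusters stood at percentiles 77.2 to 92.4 of gaps. In H2A.Z they were 417732 and 379928 bp (Hoxa), 266879 and 455229 bp (Hoxb), 337011 and 367559 bp (Hoxc), and 244617 and 244141 bp (Hoxd), against median gaps of 6702 and 7976 bp (percentiles 94.9 to 97.9). Each gap counts once in these percentiles, whatever its length, while the stretch at a cluster is the longest that touches its span. A long gap touches a span more readily than a short one, so the percentiles overstate how unusual the stretches are. The number of longer gaps in the same list ran from 800 (Hoxb, WT ATACseq) to 2407 (Hoxd, WT ATACseq).

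The clusters are dense in genes and in CpGs, so windows of like density were set beside them. Outside the clusters there were 27238 windows of 100 kb, and 73.8% of them had no peak in each of the ATACseq lists. No H2A.Z peak lay in 52.0% of them in WT and in 52.6% in Uhrf1hepKO, so windows without a peak were common. Of these windows, 77 had at least 9 protein-coding TSSs. Among the 77, 15.6% had no WT ATACseq peak, 16.9% no Uhrf1hepKO ATACseq peak and 9.09% no H2A.Z peak in each of the H2A.Z lists. Their median was 2 ATACseq peaks in each list and 9 H2A.Z peaks in each list. Among the 38 windows with at least 2.09 CpGs per 100 bp, the density of the Hoxb cluster, 18.4% and 13.2% had no ATACseq peak and 5.26% no H2A.Z peak in either list. The 8 windows with both properties each had at least 1 peak in every library.

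Noncoding genes inside the clusters had no more peaks than the Hox genes. Of 43 annotated noncoding genes, among them 7 miRNA genes and the long noncoding RNAs Hotair and Hotairm1, none had an ATACseq peak within 5 kb. In WT H2A.Z the antisense gene Hoxb5os had one, which is the Hoxb peak described above, and in Uhrf1hepKO H2A.Z none did. The 3 protein-coding genes of other names in the spans had none. The share over all noncoding genes of the genome was not taken, so the counts for the 43 have no background beside them. Of the 43, 16 were misc_RNA entries, several of them inside Hotairm1, Hoxa11os or Hotair, so the 43 are not separate sites.

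Genes farther out on either side of the clusters often had peaks, but most of those within 100 kb did not. The 24 protein-coding genes nearest to the clusters, 3 on each side, lay 8753 bp (Evx2) to 910371 bp (Nfe2l2) away. Of the 24, 15 (62.5%) had a WT ATACseq peak and 13 (54.2%) a Uhrf1hepKO ATACseq peak. In each of the H2A.Z lists 19 (79.2%) had a peak. The Wilson intervals held the shares given above for genes with at least 52 CpGs. Within 100 kb, Evx2, Ttll6 (28865 bp), Evx1 (52618 bp), Calcoco2 (82352 bp) and Skap1 (96337 bp) had no peak in any library. Mtx2 (60661 bp) and Lnpk (88875 bp) had peaks in both assays. All others of the 24 had an H2A.Z peak in both lists. Several of these neighbours are themselves paralogues of one another, and the families were formed after the values were seen. Atp5g1, Atp5g2 and Atp5g3, which encode a subunit of mitochondrial ATP synthase, each had a peak in all 4 libraries. They lay 118646 bp from Hoxb, 248751 bp from Hoxc and 756984 bp from Hoxd. The heterochromatin protein genes Cbx3, 671886 bp from Hoxa, and Cbx5, 154692 bp from Hoxc, also had a peak in all 4 libraries. Cbx1, 420871 bp from Hoxb, had H2A.Z peaks but no ATACseq peak. Skap2, 143041 bp from Hoxa, had peaks in all 4 libraries and Skap1 beside Hoxb had none. Evx1 and Evx2, the homeobox genes next to Hoxa13 and Hoxd13, had none in any library, with 42 and 59 CpGs at their TSSs.

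Of the 16 first ATACseq peaks outside the clusters, 1 on each side per library, 11 lay within 5 kb of a protein-coding TSS, and of the 16 first H2A.Z peaks 7 did. The others lay farther from a TSS, among them both H2A.Z sides of Hoxb, where the first peaks were in Ttll6 and Skap1. These counts are not of separate places, since the ATACseq peaks at Hibadh, Atp5g1, Snx11 and Lnpk were counted once per genotype. The share of all peaks of a list within 5 kb of a TSS was not taken. Hibadh, an enzyme of valine breakdown, had ATACseq peaks of fold 7.52 (WT) and 4.87 (Uhrf1hepKO), 379360 and 379407 bp beyond Hoxa13. On the Hoxb13 side the first ATACseq peaks were at Atp5g1, 118170 bp (fold 6.49) and 118165 bp (6.14) away. Beside Hoxd13 they were at Lnpk, 89258 bp (fold 5.58) and 89227 bp (5.95) away. Beyond Hoxd1, WT ATACseq had a peak at Mtx2, 60693 bp away with a fold of 3.61 and a −log10 q-value of 1.34, which was at the 13.4th percentile of its list, while the next Uhrf1hepKO ATACseq peak was 449589 bp away. Both livers had an H2A.Z peak at Mtx2 (fold 13.9 in WT and 11.6 in Uhrf1hepKO). Beyond Hoxc4, the WT ATACseq peak at chr15:103090441-103090596 (fold 3.48) lay 53589 bp away and the next Uhrf1hepKO ATACseq peak 140266 bp away, and H2A.Z peaks of fold 6.34 and 6.04 lay 53393 and 53388 bp away in WT and Uhrf1hepKO. Whether such ATACseq peaks of low fold differ between genotypes was not tested.

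Hox proteins bind DNA with cofactors of the TALE class, whose homeodomains have an extended loop. Of the 9 TALE cofactor genes, 4 had a WT ATACseq peak, 3 a Uhrf1hepKO ATACseq peak and 7 an H2A.Z peak in each list, and Meis3 and Pknox2 had none. Meis1 had 6 H2A.Z peaks in WT and 7 in Uhrf1hepKO, the highest with folds of 9.26 and 7.20. The ParaHox and caudal genes (Gsx1, Gsx2, Pdx1, Cdx1, Cdx2 and Cdx4), which are relatives of the Hox genes outside the clusters, had a single peak among all 4 libraries, in WT H2A.Z at Cdx4 (fold 4.39). The 6 Dlx genes, homeobox genes of the limbs and face, had none.

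Other gene clusters were not alike. Of 57 clustered protocadherin genes, which encode adhesion proteins of neurons, 1 had a WT and 1 a Uhrf1hepKO ATACseq peak, and 9 had a WT and 4 a Uhrf1hepKO H2A.Z peak. Of 67 replication-dependent histone genes, 52 (77.6%) and 54 (80.6%) had an ATACseq peak and 63 (94.0%) and 66 (98.5%) an H2A.Z peak in WT and Uhrf1hepKO. These genes also stand close together and share windows.

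**Figure D4:**
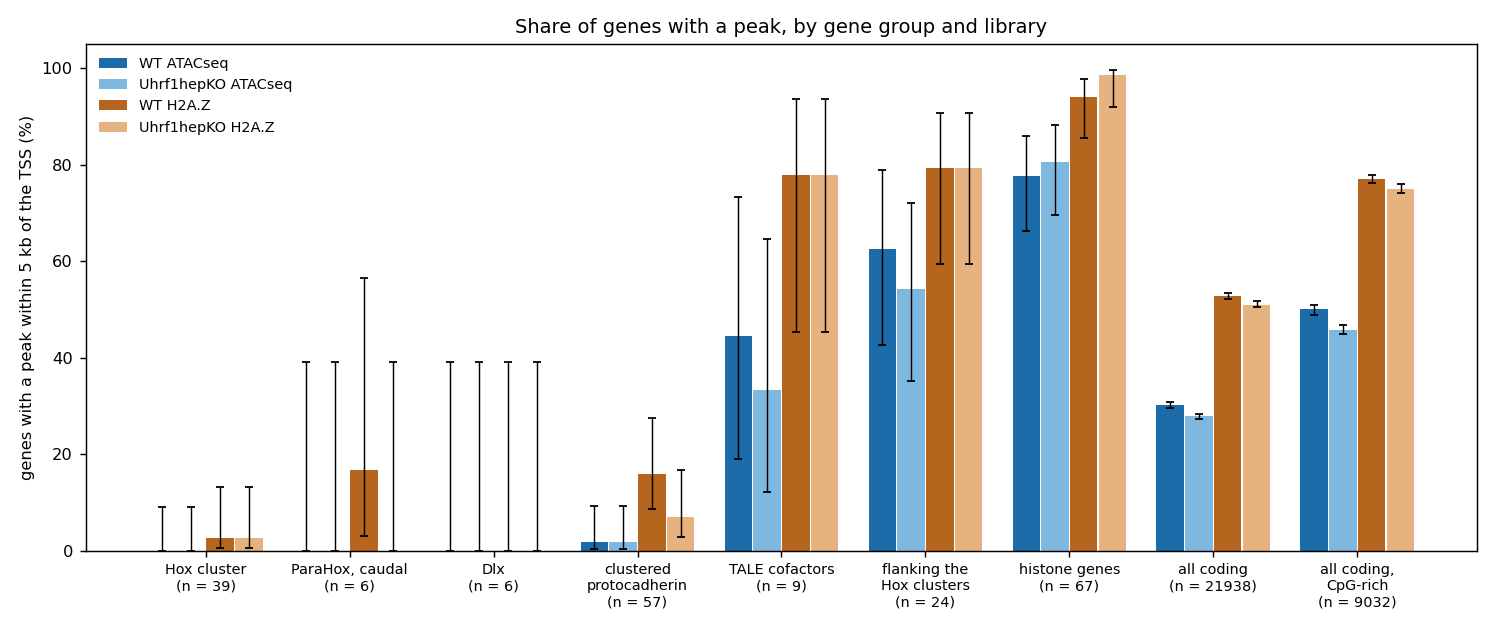
Percentage of genes in each group that had a peak (5 kb either side of the TSS) in the 4 libraries; bars start at 0 and error bars are Wilson 95% intervals for counting error. The 39 Hox genes stand at 0% in ATACseq and 2.56% in H2A.Z, below the 24 genes that flank the clusters (54.2% to 79.2%).

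The lists held 10582 (WT) and 10764 (Uhrf1hepKO) ATACseq peaks and 51450 and 47135 H2A.Z peaks on chromosomes 1 to 19, X and Y. Depth is known only through these peaks. A peak needs enough reads to be listed, and a Hox site with fewer reads is missing from the lists without being shown to be closed or free of H2A.Z. The liver label could not be checked from marker genes: 0 of 7 hepatocyte markers had a WT ATACseq peak, 1 a Uhrf1hepKO ATACseq peak, 2 a WT and 1 a Uhrf1hepKO H2A.Z peak. Endothelial and Kupffer cell markers (6 each) had none in any library, and stellate (6), cholangiocyte (5) and blood markers (4) had at most 2 in a library. The cell types that gave the Hoxa7 and Hoxb H2A.Z peaks were not tested.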

How the data were processed

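ATACseq and H2A.Z ChIPseq peaks came from 1 WT and 1 Uhrf1hepKO liver. The authors trimmed the reads (Trimmomatic; FastQC 0.11.5 for quality, per the labels), aligned them to GRCm38.p4 with BWA-MEM, sorted and cleaned them with PICARD, and used MACS2 to call peaks, library by library. The MACS2 version, a control library and a shift of ATACseq reads are not given in the sources used here. The methods give single-end ATACseq reads and a paired-end option for the calls. Each deposited peak has a score for display, a fold (the ratio of pileup to local background, averaged over ATACseq regions and taken at H2A.Z summits), −log10 p- and q-values and, in the deposited H2A.Z lists, the summit as a distance from the peak's start. Nothing is scaled between libraries, so folds were read within a list.

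Positions are 1-based in GRCm38. Peaks off chromosomes 1 to 19, X and Y were left out. The gene models were those of GENCODE vM21, and bases were read from the RefSeq FASTA. A gene had a peak when 1 bp of it lay within 5 kb of the gene's 5′ end. CpGs were counted within 500 bp. Shares have Wilson 95% intervals. With 1 library per group no test was made. H2A.Z folds rise in steps of 1 read, because 1 is added to both pileup and background before they are divided. Of the peaks, 93.6% (WT) and 91.4% (Uhrf1hepKO) lay on these steps within 0.0002 in fold, and on the steps the Poisson p-value matched the deposited one within 5%. Intervals and read numbers cover counting error only.

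Hox genes with a peak within 5 kb, or in 1 of the lists in a cluster, are described with position and fold. Members, gene lists and rules were chosen with earlier results of these data known. Sequences were planned for ATACseq peaks, and H2A.Z peaks were shown in their place. Of 8 hepatocyte markers listed, 7 matched a gene name. The steps were tested on simulated data. Software was scipy 1.17.1, pandas 2.3.3 and numpy 2.4.6 under Python 3.11.15, with plots from matplotlib 3.10.9.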

Additional observations from a re-analysis of the deposited data

How the results depend on the processing

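The 30 results, which were the counts of Hox genes and cluster peaks, overlaps and base coverage, gave 106 values under the alternatives. Of the 56 ATACseq values, 12 could have risen from 0, those with a 10 kb window, other transcript starts or spans widened by 5 or 50 kb, and all 12 stayed at 0. The rest can only give 0, as they were narrower choices or overlap settings with no ATACseq peak in the clusters to act on. Of the 50 H2A.Z values, 8 moved by more than 1.5 times. With a 10 kb window, 5 genes had a WT peak (Hoxa3, Hoxa7, Hoxa9, Hoxb4 and Hoxb5) and 3 a Uhrf1hepKO peak (Hoxa3, Hoxa7 and Hoxa9). With the starts of every transcript, 2 genes had a peak in each H2A.Z library (Hoxa7 and Hoxa9), and it was the same peak for both genes. With the start of the lowest-numbered transcript of each gene and a 1 kb window, which was added after seeing the data, 0 genes had a peak in either, since the peak is 4070 and 3970 bp from that start of Hoxa7. With only the stronger peaks, those of median fold or more, the WT H2A.Z peaks in the clusters fell to 1 and the Hoxb coverage to 0, as the Hoxb peak has a fold below the median of 5.12. The overlap of an ATACseq with an H2A.Z peak in the clusters has no peak to act on. No paired analysis was possible because each group has 1 library and no result comes from a test, and no library could be left out for the same reason. Sites under the lowest listed pileup (11 reads in WT and 12 in Uhrf1hepKO H2A.Z, at the common background) are not in the lists.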
